A study of Mus musculus with 598 samples.

Results

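The cells described here are the 40 wild type cells of stage E6.75 that scored highest for Cdh1, Fgf5 and Otx2, 20 in each of 2 library sets of 83 and 89 cells. They make up 23.3% of the E6.75 wild type cells and 6.69% of the 598 single mouse cells of the series. All cells were sorted for GFP driven from Mesp1, and a library holds the RNA of 1 cell. The labels give its stage (E6.75 or E7.25), its genotype (wild type or knockout) and the reporter, and name no embryo, litter or pool. The groups used beside the 40 cells were the other 63 and 69 E6.75 wild type cells of the sets, 85 E6.75 knockout cells and the E7.25 wild type cells, which make up the rest of the series. The knocked-out gene is not named in the labels. Mean Mesp1 in the knockout cells was 7.76 CPM (reads of a gene scaled to the reads of that cell on all genes) at or above the score limit given below and 11.6 CPM under it. The extraction protocol in the labels describes bone marrow cells, and the summed level of 4 bone marrow markers was at most 7.63 CPM in any of the 40 cells.

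Gastrulation begins when cells of the epiblast, an epithelium held together by E-cadherin, enter the primitive streak, lose their junctions and leave as mesoderm or endoderm. Cdh1 encodes E-cadherin, Fgf5 is a growth factor typical of the primed epiblast, and Otx2 is a homeobox factor of the epiblast and later of anterior tissue. Mesp1 encodes a basic helix-loop-helix factor that the earliest mesoderm makes as it forms.

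The high-scoring cells were selected on their own expression, and the choice was made separately in 2 library sets. A cell belonged to set 1 when it had a read of at least 5 of 8 marker genes of that set and otherwise to set 2; each set 1 cell had reads of 8 of them, and each set 2 cell of at most 4. The labels do not name these sets. The score was the mean of log2(CPM + 1) over Cdh1, Fgf5 and Otx2, and the 20 highest cells of each set were compared with the other 63 and 69 cells of the same set. The limit fell at different scores. The lowest of the 20 in set 1 scored 4.92 and the next cell 4.80, whereas in set 2 these values were 6.58 and 6.49. Within 0.5 units of the limit lay 2 chosen and 6 other cells in set 1, and 12 chosen and 3 other cells in set 2, so the cells grade into the rest of the population.

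**Figure D1:**
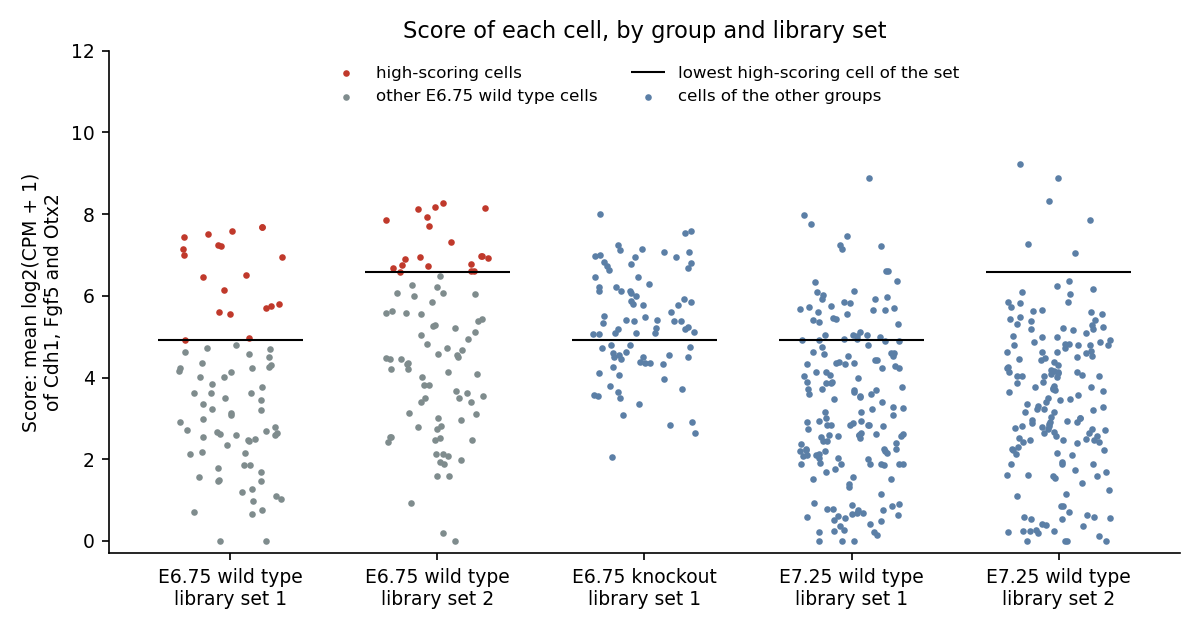
Score of each cell (vertical axis, mean log2(CPM + 1) of Cdh1, Fgf5 and Otx2) by group and library set (horizontal axis), with 1 point per cell and a line at the lowest high-scoring E6.75 wild type cell of that set. The lines lie at 4.92 in set 1 and 6.58 in set 2. The set 1 line is reached by 53 of 85 knockout cells (62.4%) and 40 E7.25 cells (23.1%), and the set 2 line by 6 E7.25 cells (3.57%).

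Every group here is 1 sample, because cells of unknown embryos are not replicates. No test was therefore run, and differences are means of log2(CPM + 1) over the high-scoring cells minus the same over the other cells of a set. A gene is called higher or lower when this difference was at least 1, or at most -1, in both sets; a combined value is the mean of the 2 set differences. The depth of the high-scoring cells had a median of 843036 reads on genes in set 1 (range 411609 to 6633770) and 1871340 in set 2 (303323 to 3149005). The other cells had medians of 653621 and 1799029 reads. After thinning each cell at random to 100000 reads, the high-scoring cells had a median of 7149 and 8630.5 genes with a read, against 6880 and 8330 in the other cells. Reads of 3 Y-linked genes were present above 3 CPM in 17 of 20 high-scoring and 36 of 63 other cells of set 1, and in 0 cells of set 2. The part of depth and of the sex of the cells in the differences was not tested, and the closing section gives values for thinned cells and for set 1 cells with Y-linked reads.

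The 3 genes that made the score describe the choice and are no result of it. Fgf5 (chr5:98254184-98277030, build GRCm38) ranged from 14.6 to 407 CPM with a median of 208.4 in the high-scoring cells of set 1, and from 0 to 346 CPM with a median of 1.76 in the other cells. Its set 2 medians were 203.2 and 7.06 CPM. Otx2 (chr14:48657677-48673819) had medians of 260.7 and 77.6 CPM in set 1 and of 291.7 and 103.4 CPM in set 2. Cdh1 (chr8:106603351-106670246) had medians of 29.1 and 0 CPM in set 1 and of 64.2 and 1.66 CPM in set 2, with reads in all 20 high-scoring cells of set 2 and in 17 of 20 of set 1. All 3 genes reached 10 CPM together in 34 of the 40 high-scoring cells, in 14 of 69 other cells of set 2 and in 0 of 63 other cells of set 1. These counts follow largely from the choice itself, since the cells highest on the same 3 genes had been taken out of the others.

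Each rule gene can also be described in cells chosen by the other 2. This is no independent reading, since most of those cells are among the 40 and the rule was set with earlier results of these data known. Cells chosen on Fgf5 and Otx2 alone, 35 of them among the original 40, had Cdh1 differences of 2.90 in set 1 and 2.43 in set 2. Their median Cdh1 level was 27.8 CPM against 0 in set 1, and 45 against 3.58 CPM in set 2. Chosen on Cdh1 and Otx2 alone, 28 of the 40 cells stayed, and Fgf5 differed by 2.84 and 2.69. Otx2 differed by 1.73 and 1.21 where Cdh1 and Fgf5 made the choice, with 34 cells shared. In cells picked with the remaining pair each gene was higher by more than 1, and its ranges overlapped between the groups in both sets.

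Of 12665 genes with a mean of at least 1 CPM in each set, apart from the rule genes, 1.06% were higher and 0.3%, or 38 genes, were lower in the high-scoring cells of both sets. In set 1 alone 6.42% of the genes were at least 1 higher and 1.78% at least 1 lower, and in set 2 alone 4.14% and 1.63% were. The genes higher in both sets were 16.5% of those of set 1 and 25.6% of those of set 2; for lower genes the shares were 16.8% and 18.4%. The median gene differed by 0.12 in set 1 and 0.05 in set 2. Both counts depend on how cells are averaged: a ratio of summed reads, in which deep cells weigh most, gave 0.687% higher and 1.67% lower genes, and cells chosen without Fgf5 gave 0.466% higher genes. The 10 highest cells of each set gave 1.67% higher genes.

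**Figure D2:**
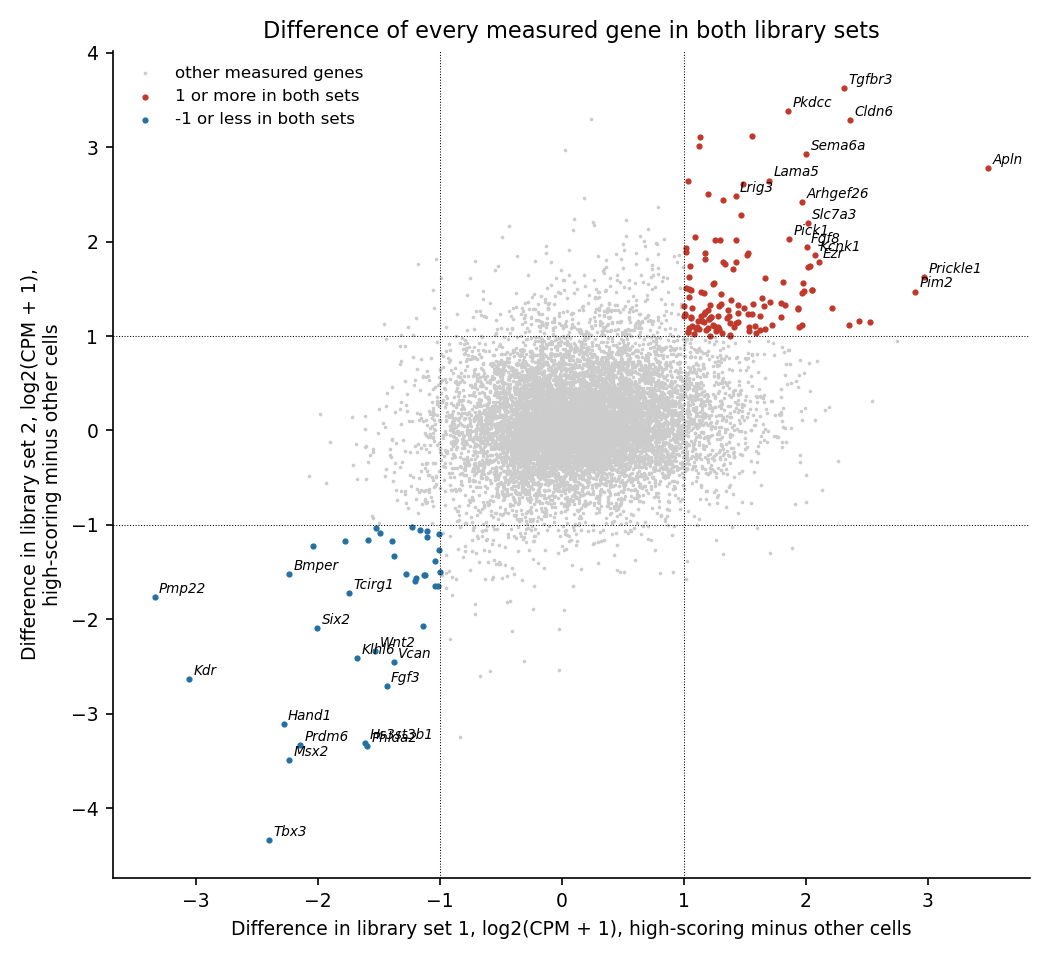
Difference of each measured gene in log2(CPM + 1), high-scoring minus other cells, in set 1 (horizontal axis) and set 2 (vertical axis), with dotted lines at 1 and -1 and names for the 15 genes per direction taken by a fixed rule. Genes higher in both sets lie at the upper right and the 38 lower genes at the lower left, and most genes past 1 in one set are not past it in the other.

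The label epiblast-like holds in part. Beyond the rule genes, 8 further epiblast markers were listed. In both sets 5 of them were higher, against 1.06% of all measured genes: Nanog, Utf1, Dnmt3b, Slc7a3 and Epcam. Sox2 (0.56 and 0.49) and Pou5f1 (0.69 and 0.31) stayed under the difference of 1, and Pou3f1 was under 1 CPM. The summed level of the 8 markers had a median of 1566 CPM in the high-scoring and 731 CPM in the other cells of set 1, and of 2371 and 1285 CPM in set 2. The streak genes remained, however. T, Mixl1 and Eomes, transcription factors of the primitive streak, all reached 10 CPM in 38 of 40 high-scoring cells, and in 60 of 63 and 68 of 69 other cells of set 1 and set 2. Mesp1 itself reached 10 CPM in 37 of the 40 and in each of the other cells. Visceral endoderm markers summed to at most 21.7 CPM in any high-scoring cell, with Ttr, Afp and Apob at 0 in all of them. The blood markers Hbb-bh1 and Hba-x were at 0 in every E6.75 wild type cell. The cells are therefore called high-scoring cells, and not epiblast cells.

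Among genes of epiblast and primed pluripotency, 9 of 19 measured members were higher and 0 were lower. Over all measured genes 1.06% were higher and 0.3% lower, so 0 lower of 19 lies near the share of all genes. The median combined difference was 0.53 against 0.10 over all measured genes. Nanog, a core pluripotency factor that is active again in the posterior epiblast, had a median of 136.7 CPM (range 0 to 505) in the high-scoring cells of set 1 and 23.3 CPM (0 to 308.1) in the other cells. Set 2 gave 86.4 CPM (9.89 to 434) and 38.5 CPM (0 to 196.9). In each set the high-scoring cells lay mostly above the median of the other cells, 14 of 20 in set 1 and 16 of 20 in set 2, within overlapping ranges. The Nanog difference was 1.82 in set 1 and 1.57 in set 2. Dnmt3b, the de novo DNA methyltransferase of the early embryo, had medians of 710 and 270 CPM in set 1 and of 1496 and 615 CPM in set 2, a difference of 1.14 and 1.21. Its lowest high-scoring cell in set 2 held 538 CPM, close to the median of the other cells. Pim2, a serine/threonine kinase, differed by 2.90 and 1.47, and Slc7a3, a cationic amino acid transporter, by 2.02 and 2.19. Utf1, a chromatin-bound factor of pluripotent cells, reached 10 CPM in 14 of 40 high-scoring cells (35%, exact 95% interval 20.6 to 51.7) and in 10.6% of the others (5.92 to 17.2). Its summed reads in set 2 gave a log2 ratio of 0.15 only, since 1 other cell held 622 CPM. Epha2, an ephrin receptor, differed by 1.18 and 1.88. The remaining higher members were L1td1, Zic5 and Sall2, and Pou5f1, Tdgf1, Lin28a, Sall4 and Trim71 did not pass 1 in either set.

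Of 6 measured naive pluripotency genes, 0 were higher and 1, Tbx3, was lower. The shares over all genes were 1.06% and 0.3%, so 0 higher of 6 lies near the share of all genes. Combined differences were above 0 in 4 of the 6, near the share of all genes, where 7940 of 12665 were above 0. The median was 0.13 against 0.10 over all genes. Zfp42, a marker of the earlier epiblast, differed by 0.27 and 0.66. De novo methylation and its antagonists gave 1 of 8 genes higher, Dnmt3b; Dnmt3a differed by 1.02 and 0.51.

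Junction and polarity genes of epithelia gave 8 higher and 0 lower of 29 measured, where 1.06% and 0.3% of all genes were. The 0 lower of 29 lies near the share of all genes. The combined median was 0.89, from 0.50 for set 1 and 0.99 for set 2. Cldn6 (chr17:23679249-23682446), a tight-junction claudin of the early embryo, had a median of 26.4 CPM (0 to 193.96) in the high-scoring cells of set 1 and of 0 CPM (0 to 116.9) in the others. The set 2 values were 85.2 CPM (0 to 652) and 1.12 CPM (0 to 203.6). Reads of Cldn6 were seen in 13 of 20 and 19 of 20 high-scoring cells, so 8 of the 40 lacked it. In cells thinned to 100000 reads the share with a Cldn6 read was 55% (31.5 to 76.9) against 20.6% (11.5 to 32.7) in set 1, and 80% (56.3 to 94.3) against 43.5% (31.6 to 56) in set 2. Its difference was 2.36 and 3.29, and it stayed past 1 under each alternative tried. Cldn7, another claudin, differed by 1.56 and 3.12.

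Epcam, an adhesion molecule that marks epithelia, was present in nearly all cells and was higher by degree. The high-scoring cells of set 1 had a median of 270.6 CPM (43.3 to 920) and the others 137.9 CPM (0 to 682); set 2 had 345 CPM (142.8 to 677) and 152.4 CPM (2.20 to 589). Its difference was 1.45 and 1.33. Lama5, a chain of basement membrane laminin, differed by 1.70 and 2.65, Lamb1, another laminin chain, by 1.0004 and 1.22, and Ezr, which ties the membrane to cortical actin, by 2.11 and 1.78. Prom1 (2.06 and 1.49) and the keratin Krt18 (1.43 and 1.14) were also higher, while Krt8, the partner keratin of Krt18, differed by 0.47 and 0.28. Esrp1, an epithelial splicing regulator, differed by 1.03 and 2.64, but its summed reads in set 1 gave a log2 ratio of -0.13. Of the list, 25 members were above 0 and 4 below it in the combined difference. Of all 12665 genes 7940 were above 0 and 4725 below it. Among its 3 genes of desmosomes, Dsp differed by -0.98 and -1.08, Dsg2 by -0.87 and -0.82, and Pkp2 by 0.10 and 2.24.

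E-boxes of the form CAGGTG are the sites by which repressors of the Snail and Zeb families act on epithelial promoters, so the bases before the start of these genes were read for them. Promoters of 3 genes higher in both sets are shown, picked because they hold the motif and overlap no annotated exon. Kcnk1 is outside the epithelial list, and no promoter of Cdh1 was available. Each sequence covers 250 bases before the RefSeq start (build GRCm38.p6), 5′ to 3′ on the gene's strand, with CAGGTG or its reverse complement CACCTG in capitals. Epcam lies on the plus strand (chr17:87635729-87635978), Lama5 on the minus strand (chr2:180225860-180226109), and Kcnk1 on the plus strand (chr8:125994852-125995101), with 2, 2 and 1 matches.
Epcam: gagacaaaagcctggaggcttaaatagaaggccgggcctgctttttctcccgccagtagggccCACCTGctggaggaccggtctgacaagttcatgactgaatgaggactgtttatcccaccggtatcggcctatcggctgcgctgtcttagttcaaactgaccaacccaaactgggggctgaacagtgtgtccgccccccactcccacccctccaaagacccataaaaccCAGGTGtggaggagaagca
Lama5: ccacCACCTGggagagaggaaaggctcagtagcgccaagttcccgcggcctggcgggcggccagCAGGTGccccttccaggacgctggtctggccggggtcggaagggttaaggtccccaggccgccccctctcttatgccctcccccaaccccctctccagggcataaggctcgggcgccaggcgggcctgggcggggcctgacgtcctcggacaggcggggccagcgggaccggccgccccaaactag
Kcnk1: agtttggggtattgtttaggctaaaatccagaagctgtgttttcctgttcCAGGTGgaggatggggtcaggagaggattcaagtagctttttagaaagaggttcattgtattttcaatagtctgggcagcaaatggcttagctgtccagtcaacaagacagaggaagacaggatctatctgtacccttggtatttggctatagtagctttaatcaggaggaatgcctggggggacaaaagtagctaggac
The motif on either strand was in at least 1 promoter of 5 of the 11 higher named genes that matched the table (45.5%; Cldn6, Prickle1, Pim2, Lama5 and Kcnk1) and of 1 of 12 lower named genes (8.33%; Tcirg1). Of 24 epithelial list genes in the table, 16 held it (66.7%), whichever way they differed. The share over all 27025 genes of the table was 19.4%. A match describes these letters and is not a measured binding site.

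Over all 12665 genes, 4725 had a combined difference below 0 and 7940 above it. Of 17 genes of the mesenchymal transition, all measured, 12 were below 0 and 5 above it, with a median of -0.26 against 0.10 for all genes. None passed 1 or -1 in both sets, which with 17 genes lies near the shares of all genes. The largest combined differences were those of Cdh2 (-1.28) and Pdgfra (-1.11). Snai1, a repressor of Cdh1 in the streak, had medians of 208.7 and 210.1 CPM in set 1 and of 164.8 and 270.3 CPM in set 2, so its difference was 0.06 in one set and -1.17 in the other. N-cadherin, Cdh2, differed by -2.07 in set 1 and -0.48 in set 2. Fibronectin, Fn1, was read in every cell and differed by -0.72 and -1.02. Pdgfra, a receptor of migrating mesoderm, differed by -0.42 and -1.81, Vim by 0.00 and 0.63, and Zeb2 by 0.16 and 0.13.

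**Figure D3:**
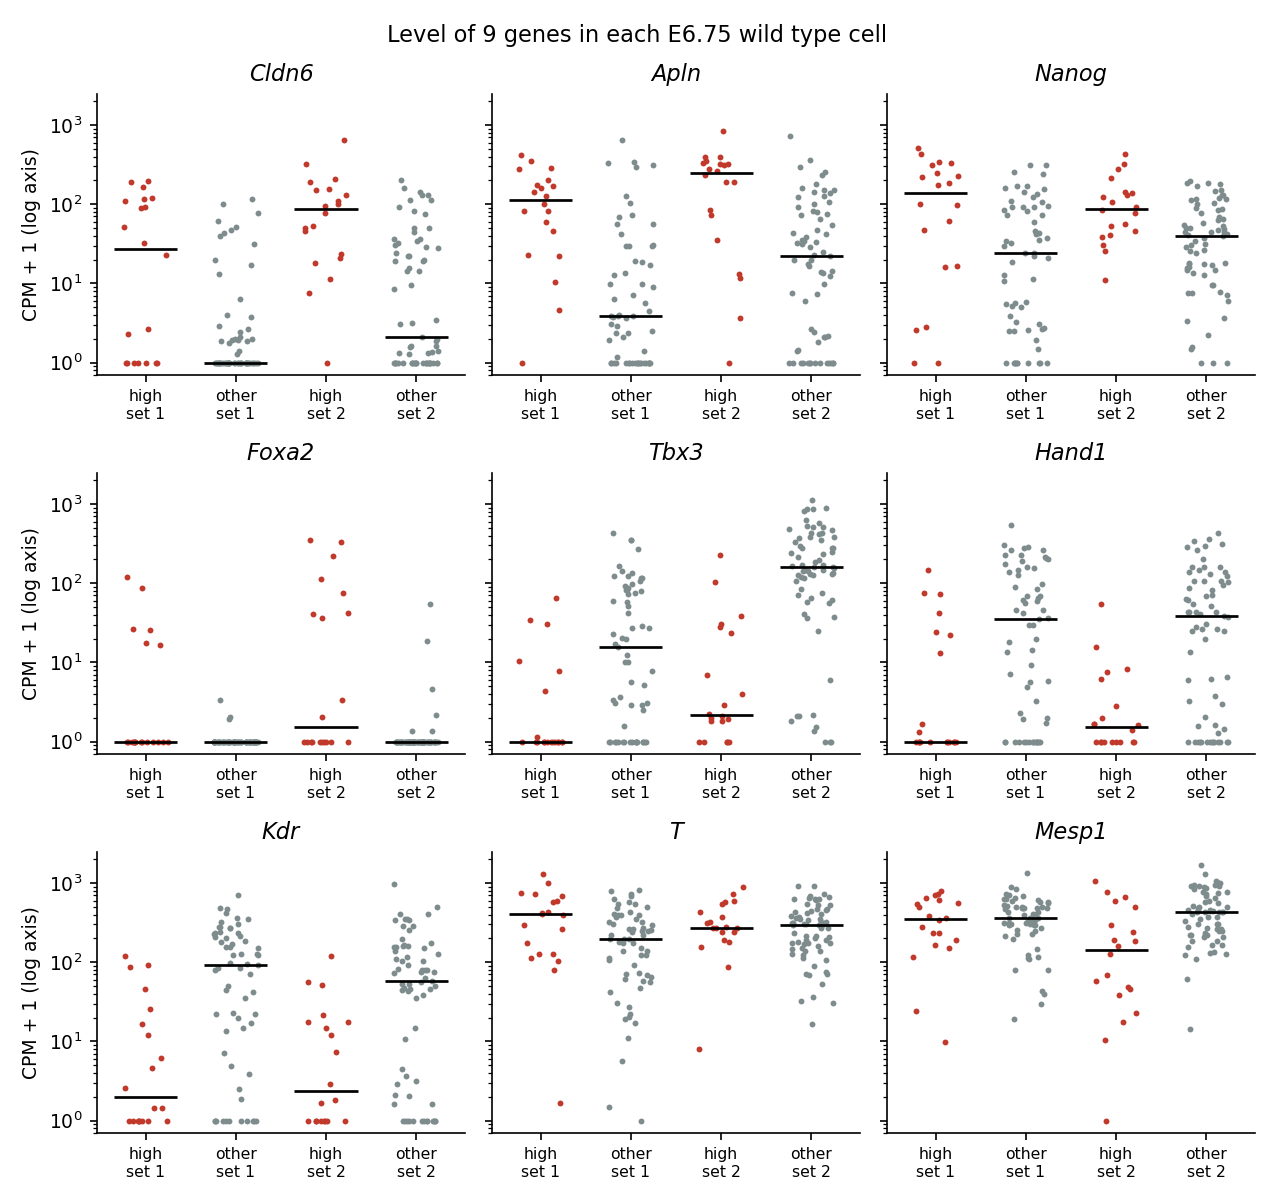
Level of 9 genes in each E6.75 wild type cell (vertical axis, CPM + 1, log axis) for high-scoring and other cells of both sets (horizontal axis), with 1 point per cell and a bar at the median. Cldn6, Apln and Nanog medians are higher in the high-scoring cells, and Tbx3, Hand1 and Kdr medians are lower. Foxa2 is read in 16 of 40 high-scoring and 9 other cells. The T median is higher in set 1 (400.1 against 196.9 CPM) but not in set 2 (272.5 against 295.9 CPM).

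Streak genes gave 2 higher and 0 lower of 16 measured, where 1.06% and 0.3% of all genes were. The 0 lower of 16 lies near the share of all genes. The list had a median of 0.39 against 0.10 over all genes. Fgf8 (chr19:45736798-45742915), the FGF ligand that streak cells need to move away, had a median of 252.4 CPM (28.5 to 538) in the high-scoring cells of set 1 and 80.1 CPM (0 to 532) in the others. In set 2 the medians were 387 CPM (130.8 to 840) and 150.7 CPM (0 to 720). Of the high-scoring cells, 19 of 20 in each set lay above the median of the others, and none was without a read. The Fgf8 difference was 2.01 and 1.95, and it stayed past 1 under each alternative tried. Nodal, the TGF-beta family ligand that induces the streak, differed by 2.53 and 1.15, with reads in 14 and 16 of 20 high-scoring cells. T differed by 0.95 and 0.16, Mixl1 by 0.51 and 0.06, Eomes by 0.64 and 0.23, and Evx1 by -0.10 and -0.90, all under the difference of 1. Sp5, a WNT target, differed by 1.37 and 0.66, and Gsc, a homeobox gene of the anterior streak, by 1.06 and 0.77.

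The list counts of this paragraph stand beside 1.06% of all genes higher and 0.3% lower. Within the Nodal pathway, 3 of 16 measured members were higher: Nodal and its secreted inhibitors Lefty1 (1.97 and 1.46) and Cer1 (1.06 and 1.75). Lefty2, the mesodermal inhibitor of the same family, differed by -0.03 and -2.54. Of 18 measured genes for FGF ligands, receptors and ERK feedback, 2 were higher, Fgf8 and Fgf17 (2.02 and 1.74), and 2 were lower, Fgf3 (-1.43 and -2.71) and Fgf10 (-1.01 and -1.09). The receptor Fgfr1 (0.36 and 0.53) and the feedback phosphatase Dusp6 (0.39 and -0.45) did not pass 1. WNT genes gave 2 higher of 21, the ligand Wnt8a (2.36 and 1.12) and the secreted antagonist Sfrp1 (1.12 and 3.01), while Wnt5a, which guides moving mesoderm, differed by -0.83 and -3.24. BMP genes gave 1 higher and 1 lower of 13 with a median of -0.58: the ligand Bmp7 differed by 1.43 and 1.79 and the target Msx2 by -2.24 and -3.49. Id1, another BMP target, differed by -0.90 and -1.55. Bmp7 rested on the mean over cells in set 1, where its summed reads gave a log2 ratio of 0.01.

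Apln (chrX:48025146-48034853), the ligand of the apelin receptor Aplnr on mesoderm cells, had the largest combined difference of all measured genes apart from the rule genes, at 3.14 (3.50 and 2.78). The high-scoring cells of set 1 had a median of 112.9 CPM (0 to 417) and the others 2.90 CPM (0 to 642), and in set 2 the medians were 247.6 CPM (0 to 842) and 21.2 CPM (0 to 716). The highest single cell of set 1 was one of the other cells, and the log2 ratio of summed reads was 0.73 in set 1 and 1.84 in set 2. Aplnr itself differed by 0.89 and 0.64. The other named higher genes were Tgfbr3, a co-receptor for TGF-beta ligands (2.32 and 3.63), Pkdcc, a secreted tyrosine kinase (1.86 and 3.38), Sema6a, a membrane semaphorin (2.01 and 2.93), and Prickle1, of planar cell polarity (2.97 and 1.63). Arhgef26 (1.97 and 2.42), the potassium channel Kcnk1 (2.08 and 1.86), Lrig3 (1.43 and 2.48) and the PDZ scaffold Pick1 (1.87 and 2.03) completed the 15. High-scoring and other cells overlapped in range for all of them.

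Nascent mesoderm genes gave 1 higher (Apln) and 2 lower (Phlda2 and Fgf3) of 15 measured, where 1.06% and 0.3% of all genes were. Their median was -0.84, but the sets differed, at -0.03 in set 1 and -1.21 in set 2. Mesp1 (chr7:79792241-79793788) had medians of 354 and 365 CPM in set 1 and of 142.6 and 427 CPM in set 2. In set 2, 5 of 20 high-scoring cells lay above the median of the other cells and 1 had no read, whereas 9 of 20 did in set 1. The reporter gene thus differed by -0.24 in one set and -1.89 in the other, and set 2 alone also gave values below -1 for Mesp2 (-1.21), Dll3 (-2.10) and Rasgrp3 (-2.44). The difference between the sets was not tested. Phlda2, an imprinted gene of early mesoderm, was read in all 40 cells and differed by -1.60 and -3.35.

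Extraembryonic mesoderm genes, which mark cells that leave the proximal streak for the allantois and yolk sac, gave 3 lower and 1 higher of 10 measured and a median of -0.996. Of all genes 0.3% were lower and 1.06% higher. Hand1, a basic helix-loop-helix factor of that lineage and of the heart, had a median of 0 CPM (0 to 144.2) in the high-scoring and 34.6 CPM (0 to 536) in the other cells of set 1, and 0.51 CPM (0 to 53) against 37.5 CPM (0 to 434) in set 2. At 10 CPM or more it was present in 9 of 40 high-scoring cells (22.5%, 10.8 to 38.5) and in 62.1% of the others (53.3 to 70.4). Msx2 and Pmp22, a membrane protein (-3.34 and -1.76), were the other lower members, and Bst2 (1.28 and 1.21) was the higher one. Foxf1 cannot be read in set 1, where all cells held at least 305.6 CPM while set 2 medians were 0 in both groups.

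Tbx3, a T-box repressor, had the largest combined difference of the lower genes, at -3.37. Its median was 0 CPM (0 to 64.8) in the high-scoring and 14.4 CPM (0 to 425) in the other cells of set 1. In set 2 these were 1.14 CPM (0 to 228.1) and 158.6 CPM (0 to 1120), and 1 of 20 high-scoring cells lay above the median of the others. Tbx3 stayed past -1 under each alternative tried. Kdr, the VEGF receptor of endothelial and cardiac progenitors, had medians of 0.996 and 92.3 CPM in set 1 and of 1.37 and 57.3 CPM in set 2, differences of -3.05 and -2.63. It reached 10 CPM in 15 of 40 high-scoring cells (37.5%, 22.7 to 54.2) and in 71.2% of the others (62.7 to 78.8). Etv2, the factor that commits cells to endothelium and blood, differed by -1.59 and -1.16; no high-scoring cell exceeded 74.9 CPM, and the highest other cells held 2391 CPM in set 1 and 1923 in set 2. Of 7 measured haemato-endothelial genes 2 were lower, and of 7 cardiac genes 1, Gata4 (-1.12 and -1.54), where 0.3% of all genes were.

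The remaining named lower genes were Prdm6, a PR domain factor (-2.14 and -3.33), Hs3st3b1, a heparan sulfate sulfotransferase (-1.61 and -3.32), Klhl6 (-1.68 and -2.42), the homeobox gene Six2 (-2.004 and -2.09) and the ligand Wnt2 (-1.53 and -2.34). Vcan, a matrix proteoglycan (-1.37 and -2.45), Bmper, a BMP-binding secreted protein (-2.23 and -1.52), and Tcirg1, a proton pump subunit (-1.74 and -1.73), completed them. Each of these was read in some high-scoring cells of both sets.

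**Figure D4:**
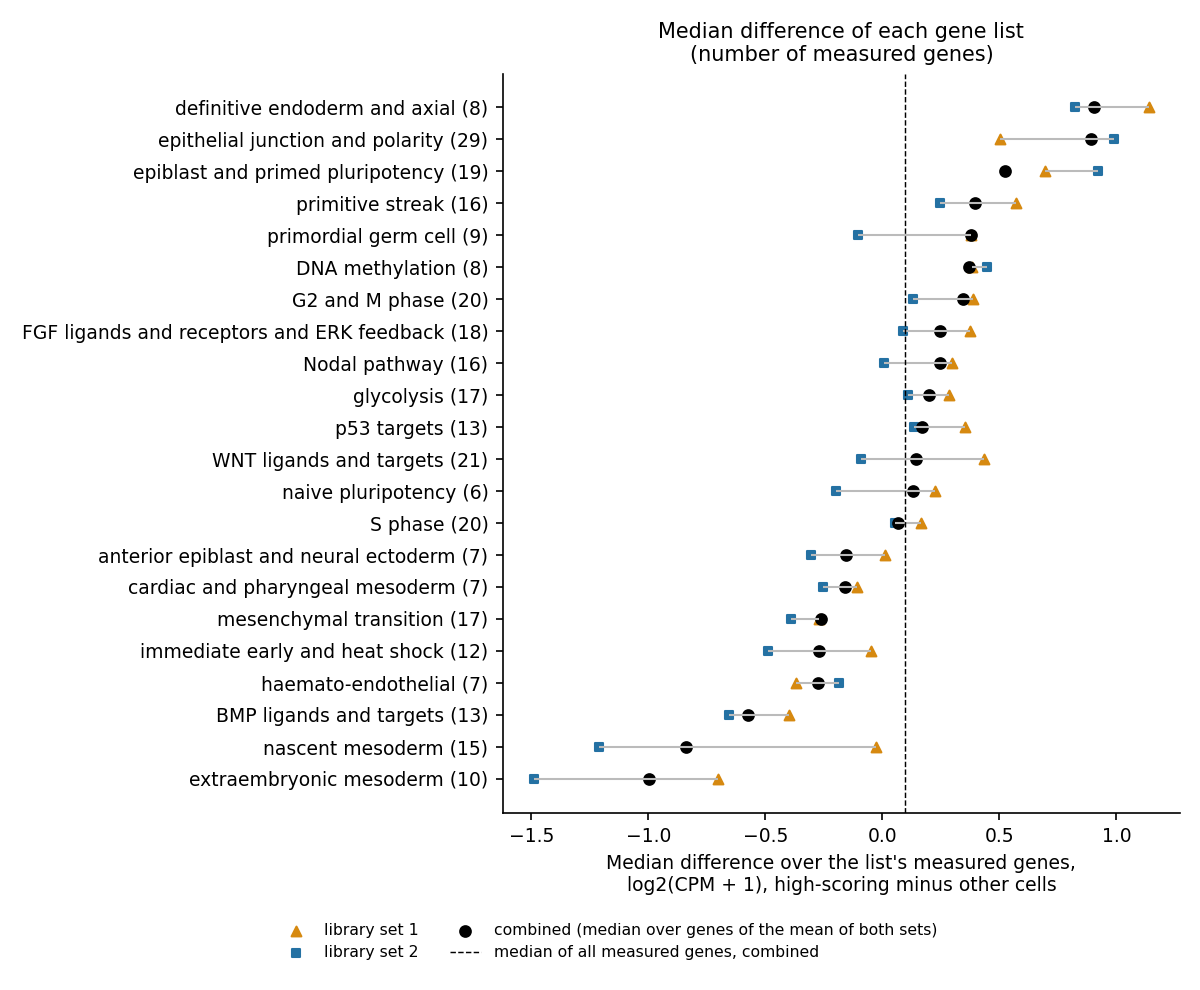
Median difference of each gene list with at least 6 measured members (vertical axis, with the number measured) in log2(CPM + 1), high-scoring minus other cells (horizontal axis), for set 1, set 2 and both combined. In the combined values definitive endoderm and axial, epithelial and epiblast lists lie highest and extraembryonic and nascent mesoderm lists lowest. The order differs in set 1, where primitive streak (0.57) lies above epithelial genes (0.50) and nascent mesoderm is at -0.03, and the line of all measured genes stands at 0.10.

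Definitive endoderm and axial genes, which mark the anterior streak and its derivatives, gave 4 higher and 0 lower of 8 measured, with a median of 0.90. Of all genes 1.06% were higher and 0.3% lower, and 0 lower of 8 lies near that share. At 10 CPM or more, Foxa2, Cer1 and Hhex were each present in a minority of the high-scoring cells. Foxa2, the forkhead factor of endoderm and axial mesoderm, had a median of 0 CPM in the high-scoring cells of set 1 and of 0.513 CPM in set 2. It reached 10 CPM in 14 of the 40 (35%, 20.6 to 51.7) and in 2 of the others (1.52%, 0.184 to 5.37). The 6 such cells of set 1 held 117.1, 85.1, 25.4, 24.9, 16.4 and 15.6 CPM. The 8 of set 2 held 346, 326.96, 220.03, 111.3, 73.9, 41, 39.6 and 35 CPM. At 10 CPM or more, Foxa2 was thus a property of a minority in each set. Foxa2 was read at all in 6 of 20 high-scoring and 3 of 63 other cells of set 1, and in 10 of 20 and 6 of 69 of set 2. Its presence at 10 CPM or more was used to look at the other genes of the 14 cells after its values were seen. Cer1 reached 10 CPM in 9 of 40 high-scoring and 2 other cells, and Hhex, a homeobox gene of anterior endoderm, in 15 of 40 and 23 other cells. Trh differed by 1.22 and 1.20.

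Streak genes were read in the high-scoring cells with Foxa2 at 10 CPM or more. Mixl1 and Eomes reached 100 CPM in 14 of 14 of them and in 26 of the other 26, and T in 12 of 14 and 24 of 26. Gsc reached 100 CPM in 11 of 14 and in 4 of 26, and Nodal reached 10 CPM in 14 of 14 and 13 of 26. Apln at 100 CPM or more was counted in 4 of 14 and 19 of 26, and Nanog at that level in 4 of 14 and 16 of 26. The Nanog counts differed mainly in set 2, with 1 of 8 against 8 of 12, while set 1 had 3 of 6 against 8 of 14. Hand1 reached 10 CPM in 0 of 14 and 9 of 26. Kdr reached it in 5 of 14 and 10 of 26, with 0 of 6 against 7 of 14 in set 1 but 5 of 8 against 3 of 12 in set 2. Hhex did in 8 of 14 and 7 of 26, and Trh in 5 of 14 and 8 of 26. Lefty1 did in 8 of 14 and 10 of 26, but in 2 of 6 against 7 of 14 in set 1. Mesp1 reached 10 CPM in 11 of 14 and in 26 of 26, so reads of Foxa2 and Mesp1 occurred in the same libraries. Doublets were not called, and their part was not tested. The sets differed within this minority. In set 2, Cer1 reached 10 CPM in 5 of 8, Sfrp1 in 8 of 8 and the receptor Kit in 8 of 8 cells with Foxa2, against 1, 2 and 1 of 6 in set 1. In the high-scoring cells without Foxa2 at that level, these were 1, 4 and 3 of 12 in set 2 and 2, 3 and 4 of 14 in set 1. Sox17, an endoderm factor, was read in 7 of 20 high-scoring cells of set 2 and in 0 of 20 of set 1.

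Kit (1.13 and 3.11) and Nanog were the 2 of 9 germ cell genes that were higher, where 1.06% of all genes were. In the share of cells with a read, 2 factors of early germ cells went opposite ways. Prdm1 was read in 12.5% of high-scoring and 25% of other cells, and Dppa3, which was under 1 CPM, in 17.5% and 2.27%. Combined differences were above 0 in 7940 of all 12665 genes. Of 20 G2 and M phase genes 16 had a combined difference above 0, with a median of 0.34 (0.39 for set 1 and 0.13 for set 2). Of 20 S phase genes 12 did, near the share of all genes, with a median of 0.07 against 0.10 over all genes. None of either list passed 1 or -1 in both sets, which for lists of this size lies near the shares of all genes. Glycolysis genes gave 0 of 17 past 1 in both sets, also near the share of all genes (1.06% higher and 0.3% lower). Of the 17, 16 were above 0 in the combined difference, with a median of 0.20 against 0.10 over all genes. The next 2 lists gave 1 gene each past the difference, beside the same shares. Of 13 measured p53 targets Pmaip1 was higher (1.54 and 1.09) and Mdm2 differed by 2.09 and 0.74. Of 12 immediate early and heat shock genes Junb was lower (-1.28 and -1.52).

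The same score limits were applied to cells that had no part in choosing the genes. By construction 20 of 83 E6.75 wild type cells of set 1 lie at or above the limit; 53 of 85 knockout cells did (62.4%, 51.2 to 72.6) and 23.1% of E7.25 cells of set 1 (40 cells, 17.1 to 30.1). In set 2, 3.57% of E7.25 cells did (6 cells, 1.32 to 7.61), against 20 of 89 at E6.75. Depth moved with the score in the knockout, with medians of 1127560 reads at or above the limit and 526074 below it, and its part was not tested.

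Among the E7.25 cells at or above the limit, 11 of the 15 named higher genes in set 1 and 13 of 15 in set 2 differed by 1 or more from the cells below it. The named genes are the extreme of those higher at E6.75; over all of the latter, 26.7% (35 genes) and 57.6% (76 genes) did. The shares of all genes past 1 were 1.25% and 12.3%, the latter from 6 cells. Of the named lower genes, 8 of 15 in set 1 and 14 of 15 in set 2 differed by -1 or less, and of all 38 lower genes 9 and 25 did, where the shares of all genes were 0.523% and 8.72%. Mean Mesp1 was 512 CPM at or above and 549 CPM below the limit in set 1, but 27.1 and 551 CPM in set 2. In the knockout cells 6 of 15 higher genes passed 1 (5.08% of all genes) and 1 of 15 lower genes passed -1 (0.624%). Over all genes higher or lower at E6.75, 22.4% (30 genes) passed 1 and 2 of 38 passed -1. All 15 higher genes were above 0 there, whereas 11 of 15 lower genes were below 0 and Tbx3 was not among them. The median of all genes in the knockout was 0.16, so most genes were above 0. It was 0.51 over all genes higher at E6.75 and -0.02 over all lower ones.

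**Figure D5:**
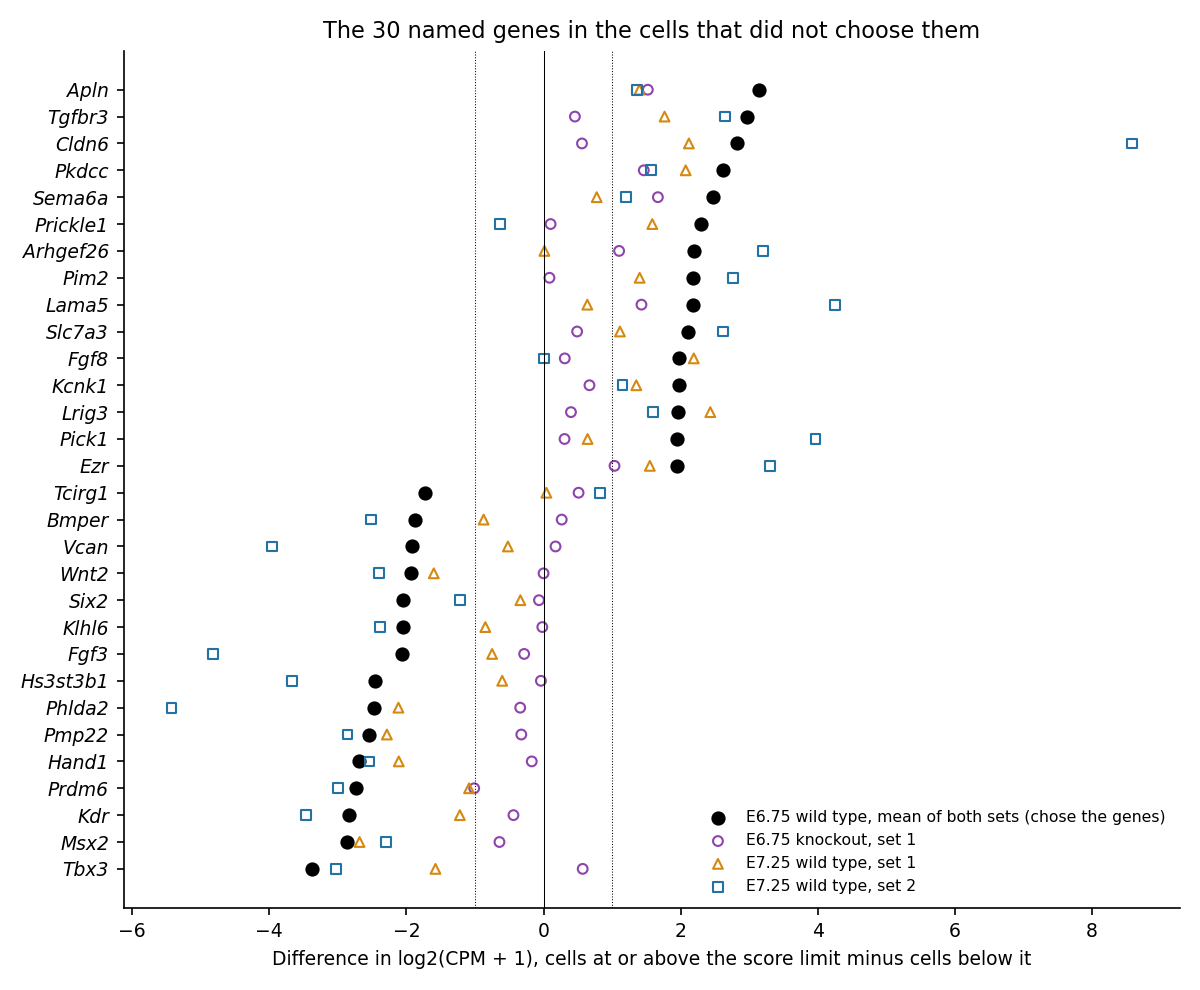
Difference of the 30 named genes in log2(CPM + 1), cells at or above the score limit minus cells below it (horizontal axis), for each gene (vertical axis) in E6.75 wild type cells, which chose the genes, and in 3 groups that did not. The E7.25 points of most lower genes lie left of 0, and the knockout points lie between -1.1 and 1.7.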

How the data were processed

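Single-cell libraries were sequenced by the submitters and deposited by the authors as 1 table of raw counts, whole reads per gene and cell (598 columns, 0 of them without a sample). Per the submitters' processing notes, GSNAP (2015-09-29), HTSeq (0.5.3p3) and build mm10 were used. For the annotation release, the strand setting and any filter on cells, what was used is not given in the sources used here; reads of overlapping or antisense genes and of close paralogs cannot be told apart. No step here removed doublets. The protocol in the labels names no molecular identifiers, so reads may be copies of 1 molecule, and intervals (exact Clopper-Pearson, 95%) cover counting error only.

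From the counts, CPM over all genes and log2(CPM + 1) were computed per cell with Python 3.11.15, numpy 2.4.6, pandas 2.3.3 and scipy 1.17.1. Differences are of means over cells within a library set, for genes with a mean of at least 1 CPM in each set. No test was made, because each group is 1 sample. The calculation of differences was tested on simulated counts with known differences in randomly drawn cells, which does not cover the choice of cells by score. Named were the rule genes, Mesp1, and the 15 genes of largest combined difference per direction (mean of at least 20 CPM and a read in at least 50% of the cells of the higher group, in both sets). Up to 4 genes per list with the largest combined difference in size (at least 5 CPM) were also named, whether or not they passed 1. Other list members are named to show which did not pass, and were chosen after their values were seen, as were the counts of cells with Foxa2. The high-scoring cells and the 26 gene lists were chosen with earlier results of these data known. Scaling factors of edgeR 4.0.16 and DESeq2 1.42.0 (R 4.3.3) served only as alternatives. Alternatives changed the reads, cells, score, scaling, added CPM and filters. One, differences relative to the median gene, was chosen after seeing the data. Some genes of the lists are not reported here.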

Additional observations from a re-analysis of the deposited data

How the results depend on the processing

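No paired analysis was possible because each group is 1 sample, the number in a cell's label only names the cell, and no result comes from a test. Against 1.06% of genes higher and 0.3% lower, the 10 highest cells of each set gave 1.67% higher, a score without Fgf5 0.466%, and the mean of both sets alone 2.31% higher and 0.687% lower. Summed reads gave 0.687% higher and 1.67% lower, 10 CPM added gave 0.0947% and 0.0632%, and cells of at least 500000 reads gave 0.529% lower. Set 1 alone gave 6.42% and 1.78%, set 2 alone 4.14% and 1.63%, set 1 cells with Y-linked reads 8.78% and 2.24%, and those without them (3 high-scoring against 27 other cells) 17.9% and 13.5%. The median of the mesenchymal list was -0.415 without Otx2, -0.454 in summed reads, -0.116 with 10 CPM added, -0.46 in deep cells, -0.39 in set 2, -0.025 where set 1 cells had Y-linked reads, and -0.104 where they had none. The epithelial median was 0.38 with 10 CPM added and 0.363 in set 1 cells with Y-linked reads. The endoderm and axial median was 0.375 with 10 CPM added. The epiblast median was 1.183 and the extraembryonic mesoderm median -1.93 among genes of at least 10 CPM, and the epiblast median was 0.922 in set 2. The set 1 cells without Y-linked reads gave medians of 0.252 for epiblast, 1.298 for endoderm and axial, 0.468 for nascent mesoderm and 0.089 for extraembryonic mesoderm genes, the last 2 of opposite sign. In them Arhgef26 (-0.636), Epha2 (-0.501), Wnt8a (-0.476), Hand1 (0.746) and Fgf3 (1.665) also changed sign. The cause was not tested. Of 52 named genes past a difference of 1, Cldn6, Fgf8, Tbx3 and Pmp22 were past it under all 21 alternatives. Some alternatives could not change this by construction: set 1 alone, set 2 alone, the mean of both sets alone, and the changed filters on genes. Of the 52, 17 stayed past it with 10 CPM added, 30 without Fgf5 in the score, 33 in set 1 cells without Y-linked reads, 38 each in summed reads, the 10 highest and the 30 highest cells, 42 in set 1 cells with Y-linked reads, 46 in thinned cells, 50 relative to the median gene and 51 with TMM factors. With cells chosen again on thinned reads, 37 of 40 stayed.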
